A study of Mus musculus with 13 samples.

Results

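B cells made up 4042 of the 118892 barcodes retained in this single-cell RNA-sequencing series of mouse colon tumors and adjacent mucosa, or 3.40%. A barcode is the tag of 1 droplet, and a UMI is a tag that marks 1 captured RNA molecule. A barcode was retained if it held 500 UMIs or more from 200 genes or more, with less than 25% of its UMIs mitochondrial. They were selected as B cells on at least 3 UMIs of Cd79a and Cd79b together, at least 1 UMI of Ms4a1, fewer than 5 of Mzb1, none of Cd3e and at most 3 of the C1q genes. Of the B cells, 3290 came from 10 tumors and 752 from 3 libraries of adjacent mucosa. Near the thresholds, 189 members held exactly 3 Cd79 UMIs and 125 barcodes with 2 lay just outside. The Ms4a1 limit weighed more, with 1676 members at 1 UMI and 1640 barcodes at 0 that met every other condition.

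The tissue came from 3 C57BL/6J mice of genotype ApcMin/+; p16cis/cis, aged 20, 23 and 24 weeks. The ApcMin allele truncates Apc, and p16cis is an engineered element that draws DNA methylation to the p16 promoter. All 3 mice received the diet supplemented with folate and other methyl donors, so every group shared both alleles and the diet, and no comparison of diets can be made. Mucosa 1 and tumors 1 to 4 came from the 20-week mouse, mucosa 2 and tumors 5 to 8 from the 24-week mouse, and mucosa 3 and tumors 9 and 10 from the 23-week mouse. The Apc allele was inherited through the germline, so the mucosa was mutant as well. Mucosa was dissociated with EDTA and TrypLE and tumors with a tumor dissociation kit, on the same day. Tissue and dissociation method therefore cannot be told apart in any comparison of tumor with mucosa. Y-linked transcripts were present in all 13 libraries (at least 6949 UMIs each) and Xist reached at most 10 UMIs, while 7 libraries were labelled female.

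B cells recognise antigen through a membrane immunoglobulin, which signals through the Cd79a and Cd79b chains. In the intestine, naive B cells bearing IgM and IgD gather in lymphoid follicles, and those activated in germinal centers mutate their receptors and switch, mostly to IgA. Their descendants become memory cells or plasma cells of the lamina propria. In tumors, B cells are known to lie in lymphoid aggregates, where they can present antigen to T cells.

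The B-cell barcodes carried the transcripts of mature B cells. Levels below are counts per 1000000 UMIs (CPM) in the summed B cells of a library and compare a gene between libraries or cell populations, not genes with each other. Ebf1, a transcription factor that sets B-lineage fate, was found in 87.3% to 96.2% of the B cells of each tumor. Pax5, which maintains that fate, was found in 15.3% to 47.6%. Ighd, the IgD heavy chain of naive cells, was found in 46.0% to 66.7%. In the T cells of the same tumors, gated on Cd3 genes, the Ighd share was at most 0.779% and the Ebf1 share at most 0.893%, at median depths of 3296.5 to 4618.5 UMIs against 1981 to 2826 in B cells. The 10 genes with the highest ratio of B cells over all other barcodes included the gate gene Ms4a1 and Ighd, Fcmr, Bank1, Pax5, Ebf1, Cr2, H2-Ob and Fcer2a. These are known genes of B cells. Among the mucosal B cells, mucosa 1 held Ighd in 69.1%, above each tumor, Ebf1 in 94.7%, within the range of the tumors, and Pax5 in 24.6%, below 9 of the 10 tumors. Mucosa 2 was lower, with Ighd in 10.4%, Ebf1 in 53.0% and Pax5 in 16.4%, and mucosa 3 had Ighd in 33.3%, Ebf1 in 84.6% and Pax5 in 24.1%. The label thus matched these markers in the tumors and, for Ighd and Ebf1, in mucosa 1. In mucosa 2 and 3 fewer B-cell barcodes held Ighd, though far more than T cells.

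**Figure D1:**
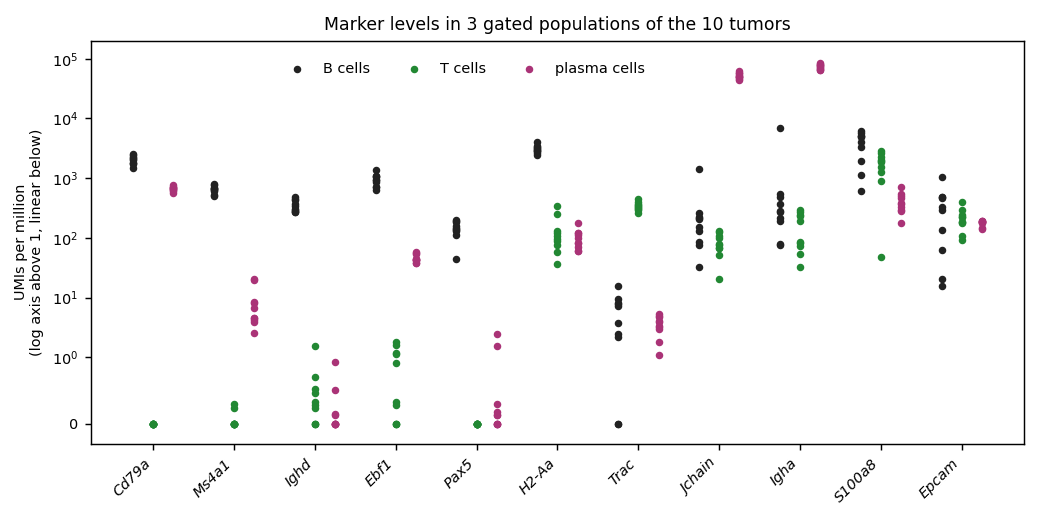
Levels of marker genes (CPM, log axis above 1 and linear below) in the B cells, T cells and plasma cells of the 10 tumors, each point 1 tumor. Ebf1 and Ighd were high in the B cells, where Ebf1 lay at 630 to 1397, and at most 1.79 in T cells, while S100a8 of neutrophils was found in all 3 populations.

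RNA of other cells was present as well. In the tumor B cells the summed neutrophil markers lay at 1454 to 18353 CPM and in the mucosal B cells at 10.5 to 27.8, where 4 of the 10 genes were at 0. The summed epithelial markers lay at 73.9 to 5114 CPM in the tumors and at 4420, 16504 and 10740 in mucosa 1, 2 and 3. A total of 382 B-cell barcodes held several UMIs of epithelial, neutrophil or macrophage genes, 5.62% to 21.3% of the B cells of a tumor and 4.39%, 27.6% and 16.0% of those of mucosa 1, 2 and 3. Those barcodes carried 17.4% to 49.5% of the B-cell UMIs of a tumor and 24.7%, 52.9% and 51.5% of those of the mucosa libraries. The test across genes was therefore also run without them, for the genes that still passed its filter. Such RNA was not fully removed there. Neutrophil markers still lay at 156 to 745 CPM in tumors and 1.78 to 12.6 in mucosa. Epithelial markers lay at 84.8 to 274 in tumors and at 455, 2333 and 1015 in mucosa 1, 2 and 3. The removal used no T-cell genes, and summed T-cell and natural killer cell markers lay at 0 to 174 in tumors and at 13.3, 80.0 and 512 in mucosa 1, 2 and 3. The ribosomal RNA-overlapping gene Gm42418 ranged from 5958 to 112490 CPM among the tumor B cells (median 43710). In the mucosal B cells it lay at 8385, 11006 and 21532 in mucosa 1, 2 and 3. Its part in the comparison of tumor with mucosa was not tested.

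B cells were unevenly spread over the libraries. Tumor 7 held 1267 of them, or 12.2% of its retained barcodes (Wilson 95% interval, counting error only, 11.6% to 12.9%), and tumor 10 held 1204, or 16.2% (15.4% to 17.1%). These tumors together held 75.1% of all tumor B cells. In the other 8 tumors the share ran from 0.459% (42 cells, tumor 9) to 2.40% (178 cells, tumor 3). Mucosa 1 held 456 B cells (8.79%), mucosa 2 held 134 (1.25%) and mucosa 3 held 162 (1.77%). The share thus varied more within tumors and within mucosa than between them.

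**Figure D2:**
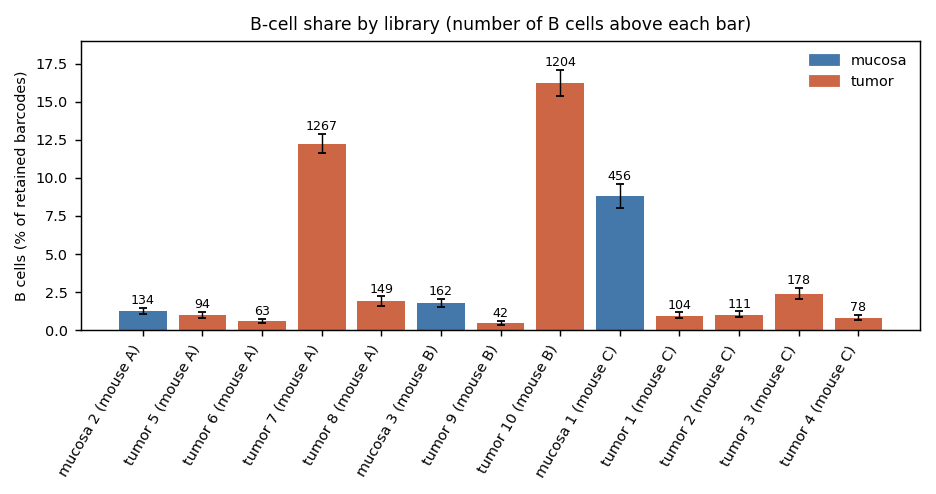
B cells as a percentage of retained barcodes in each of the 13 libraries, with the number of B cells above each bar. Tumors 7 and 10, at 12.2% and 16.2%, and mucosa 1, at 8.79%, stand above the other libraries, all at or below 2.40%.

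The tumor share did not differ detectably from that of the mucosa. The mean over the 3 mice was 4.52% in tumors and 3.94% in mucosa, a difference of 0.582 percentage points (exact permutation test within mice, two-sided p = 0.947, smallest possible p 0.0133). The tumor mean lay above the mucosa in the 24-week mouse (3.93% against 1.25%) and the 23-week mouse (8.34% against 1.77%) and below it in the 20-week mouse (1.30% against 8.79%). The sign of the difference rested on single tumors and mice: it was -2.04 without tumor 10 and -0.342 without tumor 7. It was -2.41 without mucosa 3 and -0.463 without mucosa 2. The test within mice also drops the tumors of a mouse whose mucosa is left out. The last values are thus those without the 23-week and the 24-week mouse. Of the barcodes with a Ptprc (CD45) UMI, B cells were 4.28% in tumors and 8.03% in mucosa (p = 0.453, same exact test). Among the 10 tumors, the difference between mice did not pass the test (F = 1.06, exact permutation p = 0.453, smallest possible 0.000317). With 1 tumor left out, F ran from 0.568 without tumor 10 to 5.64 without tumor 9 (exact permutation p = 0.556 and 0.0730).

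The antibody class of the B cells differed among the mucosa libraries more than among the tumors. A class was called where it held at least 2 UMIs and at least 2 times those of the next. IgM or IgD was the class of 72.1% to 97.3% of the called tumor B cells (median 89.3%). It was the class of 94.0% in mucosa 1 but of 31.2% in mucosa 2 and 54.9% in mucosa 3. IgA took most of the remainder in these mucosa libraries, at 62.4% and 36.9%, against 3.60% in mucosa 1. Mucosa 1 thus resembled the tumors in class, while mucosa 2 and 3 held many IgA cells.

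IgA shares in tumors have to be read against the T cells of the same libraries. Among all tumor T cells, which do not make IgA, 2.08% to 38.5% were called IgA (median 16.5%). Among all tumor B cells, 0% to 17.5% were (median 4.81%), and the B-cell share was below the T-cell share of the same library in 9 of 10 tumors. In tumor 10 it was 2.41% against 2.08%. An IgA call in a B cell also has to exceed its own IgM or IgD transcripts, which T cells do not make, so the shares are not measured alike. How much of the tumor IgA share is background, and the source of these transcripts, was not tested. In mucosa 1, 2 and 3, 3.29%, 43.3% and 27.8% of all B cells were called IgA against at most 0.954% of T cells, at median T-cell depths of 3645, 1429 and 1857.5 UMIs. The IgA share of called cells averaged 7.59% in tumors and 34.3% in mucosa over the mice (exact permutation p = 0.0400, adjusted over 5 fractions 0.0667), with 2 of 10 tumors above their own mucosa. IgG averaged 3.22% and 5.68% (exact permutation p = 0.160, adjusted 0.160), and no B cell was called IgE.

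Lambda light chain calls were more frequent in the mucosal B cells, though not past the threshold after adjustment. Mouse B cells mostly use kappa, encoded by Igkc. The light chain was called on at least 5 UMIs and 2 times the other chain. Lambda made up 1.04% to 9.59% of called tumor B cells (median 1.93%) and 7.32%, 30.2% and 16.5% in mucosa 1, 2 and 3. One tumor of 10 lay above its own mucosa. The means over mice were 2.59% and 18.0% (exact permutation p = 0.0267, adjusted 0.0667), which misses the threshold after adjustment. Kappa transcripts were also found in T cells, where 1.30% to 55.1% of the cells of a tumor were called kappa, against at most 0.689% in mucosa. At most 0.312% of T cells were called lambda in any tumor. A lambda call needs at least 2 times the kappa UMIs, so kappa RNA from other cells counts against it. The part of this in the lower tumor share was not tested. Of all B cells, called or not, lambda cells were 0.962% to 8.97% in tumors and 5.70%, 19.4% and 11.7% in mucosa 1, 2 and 3.

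In the mucosa, the lambda share was higher among IgA cells than among IgM or IgD cells. This cut was made after the values were seen and carries no test. Of the mucosal IgA cells with a called light chain, 38 of 73 were lambda, or 52.1% (exact binomial 95% interval 40.0% to 63.9%). By library these were 3 of 7 in mucosa 1, 21 of 41 in mucosa 2 and 14 of 25 in mucosa 3. Of the mucosal IgM or IgD cells, 24 of 390 were lambda, or 6.15% (3.98% to 9.02%), namely 21 of 315 in mucosa 1, 2 of 19 in mucosa 2 and 1 of 56 in mucosa 3. Most lambda cells of mucosa 1 were thus IgM or IgD cells, and most of mucosa 2 and 3 were IgA cells. In tumors the shares were 2.56% of 195 IgA cells (0.838% to 5.88%) and 2.18% of 2060 IgM or IgD cells. Of these 195 cells, 118 came from tumor 7 and 27 from tumor 10, and the interval covers counting error only. How many of these tumor IgA calls were background was not tested. Iglc1 led the lambda UMIs in 46 of 71 mucosal and 40 of 68 tumor lambda cells, although the Iglc genes are close copies and reads can be split among them.

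**Figure D3:**
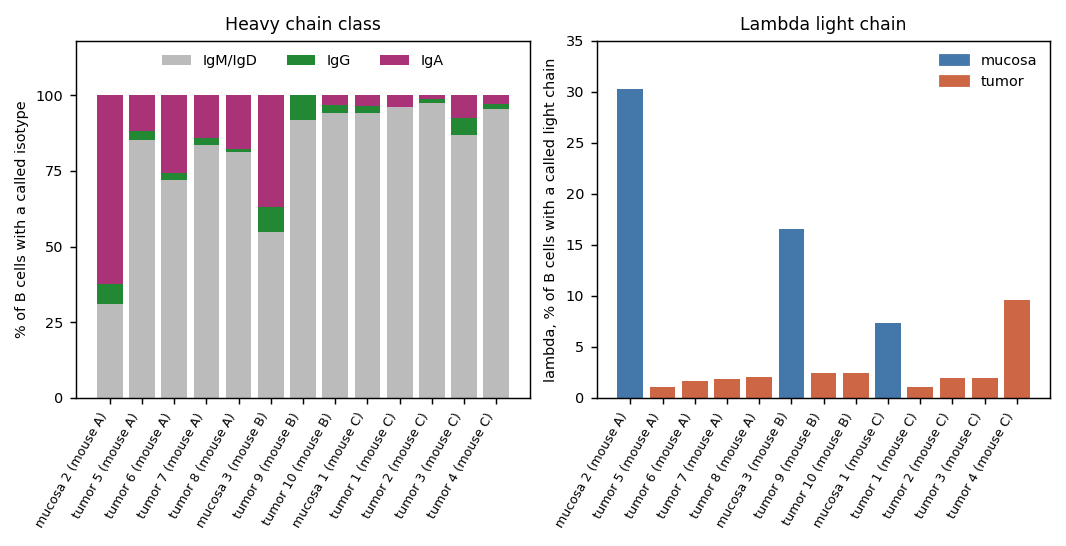
Percentage of B cells with a called heavy chain class that were IgM or IgD, IgG and IgA (left) and percentage of B cells with a called light chain that were lambda (right), per library. IgM or IgD was the class of most B cells in mucosa 1 and all tumors, while IgA reached 62.4% in mucosa 2 and lambda reached 30.2%.

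Cycling and germinal center B cells were few. After each cell was thinned to 1000 UMIs, a cell passed a gate with at least 2 UMIs from at least 2 genes of the list. The cycling gate was passed by 14 of 3269 tumor B cells and by 20 of 735 mucosal B cells. Mucosa 1, 2 and 3 stood at 0.885%, 8.66% and 3.21%, and all 10 tumors stood below the mucosa library from the same mouse. The means over mice were 0.310% and 4.25% (exact permutation p = 0.0133, the smallest possible, adjusted 0.0667). The germinal center gate was passed by 17 tumor and 10 mucosal B cells, with means of 0.375% and 1.49% (exact permutation p = 0.0533, adjusted 0.0667). By tumor the share was 0% to 1.32% (median 0.209%), and in the T cells of the tumors it was 0% to 1.08% (median 0.309%). The B-cell share was above the T-cell share of the same library in tumors 4, 5, 7 and 10 (in tumor 7, 0.716% against 0.313%) and not in the other 6. Genes of the list such as Fas and Basp1 were also found in tumor T cells, at means of 33.1 and 73.6 CPM, so the T-cell share is no pure measure of background. In mucosal T cells the share was at most 0.168%. The cycling gate was passed by 3.23% to 6.63% of tumor T cells and 2.33% to 7.37% of mucosal T cells.

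Single germinal center genes gave few UMIs. Rgs13, a germinal center regulator of G protein signaling, had 8 UMIs in the summed tumor B cells and 43 in the mucosal B cells, the latter from 2 of 3 libraries, at 28.1 CPM in mucosa 1, 1.99 in mucosa 2 and 0 in mucosa 3. In the mucosa Rgs13 averaged 14.3 CPM in all barcodes outside the B-cell gate, T cells included, and 0.799 in T cells, and the excess of the B cells over the T cells rested on mucosa 1. Mef2b, a transcription factor of germinal center B cells, had 53 UMIs in tumors and 40 in mucosa, the latter from all 3 libraries. The mucosa-to-tumor ratio per UMI was 2.80 (exact interval, counting error only, 1.81 to 4.30). In the mucosa Mef2b averaged 0.447 CPM in all barcodes outside the gate and 0.108 in T cells. Such genes were too low for the test across genes.

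To compare transcripts, UMIs were summed over the B cells of each library, and the 10 tumor sums were compared with the 3 mucosal sums by edgeR's quasi-likelihood test with Benjamini-Hochberg adjustment. Of 5857 genes tested, 926 (15.8%) were higher in tumor B cells and 1070 (18.3%) were lower at an adjusted p under 0.05. The median log2 fold change over all genes was close to 0. Without the barcodes that held transcripts of other cells, 3382 genes were tested and 609 were higher and 666 lower, and 930 of the 1192 main calls tested there were called again, 928 of them in the same direction. IgD-bearing cells were scarce in mucosa 2 and 3. The test was therefore also run on the IgD-bearing B cells among the remaining barcodes, as a choice made after seeing the data. Mucosa 2 had 11 such cells, under the minimum of 20, and was left out, so this comparison set 10 tumors against mucosa 1 and 3. Wherever values in IgD-bearing cells are given, the choice of cells and the loss of mucosa 2 cannot be told apart. In these cells 282 genes were higher and 203 lower of 2116 tested. Counts of list members are read against the share of all genes called in the same test. These were 15.8% higher and 18.3% lower in the full set, 18.0% and 19.7% without other-cell barcodes, and 13.3% and 9.59% in IgD-bearing cells. They were 16.7% and 18.5% without mucosa 1, 11.6% and 10.9% without mucosa 2, and 9.45% and 8.25% without mucosa 3. A total of 1077 genes were called without mucosa 3 and 1368 without mucosa 2, so the number of calls rested in part on these libraries.

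The raised genes kept by the naming rule included the inducible heat shock genes Hspa1b and Hspa1a and the 3 Nr4a nuclear receptor genes. The rule leaves out genes whose level in B cells was under 0.5 of that in all other barcodes, since 9 of 10 neutrophil markers and 7 of 7 macrophage markers tested were also called higher in the tumor B-cell sums. The 10 genes were Hspa1b, Hspa1a, Nr4a3, Vps37b, Crem, Nr4a1, Nr4a2, Tob2, Pim1 and Kdm6b. Nr4a1, a nuclear receptor induced by antigen receptor signaling, lay at 206 to 419 CPM in tumors (median 281) and at 31.4, 3.97 and 14.4 in mucosa 1, 2 and 3. It rose by 3.92 ± 0.39 on the log2 scale (SE, adjusted p = 3.91e-06). Crem, a cAMP-responsive transcription factor, lay at 125 to 244 CPM (median 195) against 12.7, 5.96 and 15.7, and rose by 3.98 ± 0.29 (adjusted p = 9.61e-08). Pim1, a survival kinase, lay at 192 to 435 CPM (median 331) against 27.4, 39.7 and 32.8, and rose by 3.36 ± 0.28 (adjusted p = 6.08e-07). The naming rule admits only genes without overlap between tumors and mucosa. Of the 5857 genes tested, 412 lay above and 473 below the mucosa without overlap.

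The other members of the 10 follow. Vps37b, an endosomal sorting subunit, lay at 182 to 627 CPM (median 430) against 24.1, 25.8 and 23.6. Kdm6b, a histone H3 lysine demethylase, lay at 73.8 to 244 CPM (median 194) against 18.7, 21.8 and 19.7. Tob2, an antiproliferative protein, rose by 3.44 ± 0.36 (adjusted p = 6.26e-06), and the orphan receptor genes Nr4a2 and Nr4a3 rose by 3.84 ± 0.48 and 4.81 ± 0.59 (adjusted p = 3.06e-05 and 2.61e-05). The inducible heat shock genes Hspa1a and Hspa1b had 342 and 353 UMIs in the tumors but 2 each in the mucosa. Their ratios per UMI were 46.1 (exact interval 12.7 to 382) and 47.6 (13.1 to 394).

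These transcripts were not particular to the B cells. In the T cells, each of the 10 genes was higher in all 10 tumors than in all 3 mucosa libraries, with a median log2 difference of 2.70, and the same held for all barcodes outside the B-cell gate, T cells included (median 3.22). The share of all genes without overlap was not counted in these populations, so such counts, here and below, stand without a background. The dissociation protocol and the tissue cannot be told apart here.

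A list of dissociation and stress response genes followed the same course. Of 15 tested members, 14 were higher in tumor B cells and 0 lower (15.8% and 18.3% of all genes), with a median log2 fold change of 1.70. Without other-cell barcodes 12 of 13 were higher (18.0% of all genes), and in IgD-bearing cells 8 of 11 (13.3%). Junb, an AP-1 subunit, lay at 1919 to 3381 CPM (median 2289) against 480, 304 and 323, and rose by 2.69 ± 0.23 on the log2 scale (adjusted p = 6.97e-07). Dusp1, a phosphatase of MAP kinases, lay at 143 to 363 CPM (median 221) against 45.5, 51.6 and 15.7. Fos lay at 153 to 555 CPM (median 353) against 142, 165 and 119, overlapping the mucosa. Jun did not pass the test (0.56, adjusted p = 0.213) but was called with the stricter gate (1.02, adjusted p = 0.0202). In T cells all 15 had a higher mean in the tumors, and 12 were higher in every tumor than in every mucosa library.

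**Figure D4:**
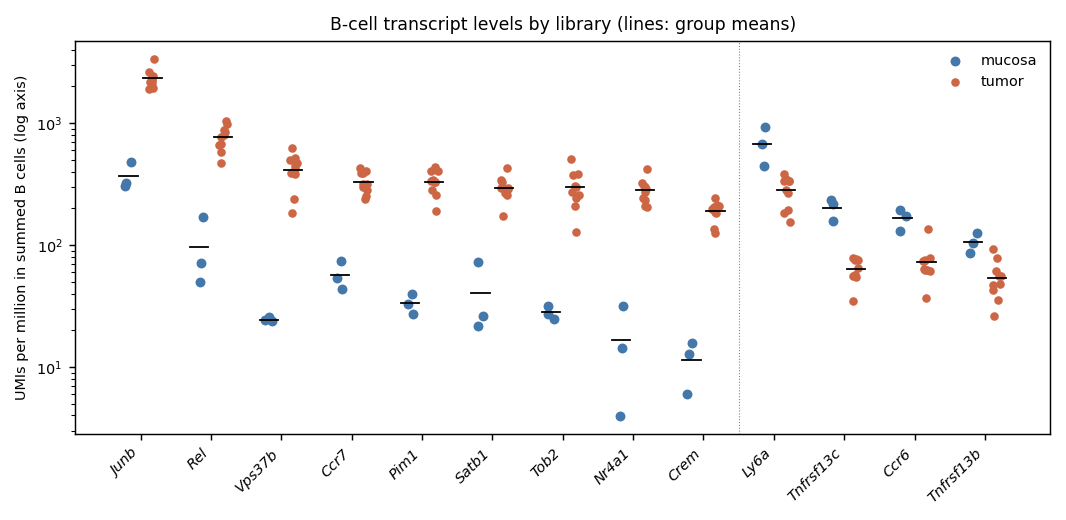
Levels of named genes in the summed B cells of each library (CPM, log axis), tumors and mucosa as separate points with lines at the group means and genes raised in tumors to the left of the dotted line. Nr4a1 sat at 206 to 419 in the tumors and at or below 31.4 in the mucosa, and Tnfrsf13c at 34.6 to 78.9 in the tumors against 157 to 232.

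Among activation and NF-kB genes, 10 of 16 tested were higher (15.8% of all genes) and 0 lower, with a median log2 fold change of 1.12. Without other-cell barcodes 6 of 15 were higher (18.0% of all genes), in IgD-bearing cells 3 of 11 (13.3%), and without mucosa 3 only 5 of 16 (9.45%). Rel, the NF-kB subunit c-Rel of activated B cells, lay at 467 to 1036 CPM in tumors (median 785) and at 169, 49.6 and 70.9 in mucosa 1, 2 and 3. It rose by 2.98 ± 0.36 (adjusted p = 2.61e-05) and stayed called under every alternative run, at 2.70 without other-cell barcodes and 2.27 in IgD-bearing cells. In T cells Rel lay at 109 to 209 CPM in tumors and 34.4 to 50.5 in mucosa. Of the 17 genes of the list, 15 were higher in every tumor than in every mucosa library in T cells (median log2 difference 1.88), and 16 in all barcodes outside the B-cell gate (2.61), so the direction of this list was not particular to the B cells.

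Other members of the list were called as well. Tnfaip3, which encodes the inhibitor A20, lay at 33.8 to 104 CPM (median 51.1) against 17.4, 5.96 and 5.25, and rose by 2.33 ± 0.39 (adjusted p = 3.79e-04). The adhesion molecule gene Icam1 and the subunit gene Nfkb2 rose by 1.47 and 1.29 (adjusted p = 3.23e-03 and 4.88e-03). In IgD-bearing cells Tnfaip3 and Nfkb2 were not called (adjusted p = 0.0649 and 0.172). The inhibitor genes Nfkbia (1.05, adjusted p = 0.0192) and Nfkbid (1.59, adjusted p = 0.0225) and the early response genes Egr1 (1.26, adjusted p = 0.0377) and Egr3 (1.19, adjusted p = 0.0311) were called in the full set. Without other-cell barcodes Egr1 stood at 0.56 (adjusted p = 0.338), Nfkbia at 0.61 (0.0557) and Egr3 at 0.77 (0.0540). In the barcodes outside the B-cell gate Egr1 averaged 248 CPM in tumors and 41.0 in mucosa. The part of other-cell RNA in these calls was not tested further. Without doublet-scored barcodes Nfkbia, Nfkbid, Egr1 and Egr3 were not called (adjusted p = 0.121, 0.0536, 0.217 and 0.104). With the tumors of a mouse summed and mouse as a block, Nfkbia was not called (adjusted p = 0.0624). Without mucosa 3 the adjusted p values of Nfkbia, Nfkbid, Egr1 and Egr3 were 0.0949, 0.115, 0.114 and 0.140. Without mucosa 2 those of Nfkbia, Nfkbid and Egr3 were 0.0842, 0.0869 and 0.106. The call of Egr1 was also lost without mucosa 1 (adjusted p = 0.158), tumor 5 (0.0564) or tumor 10 (0.0512), and that of Egr3 without tumor 7 (0.0521).

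The upstream windows of the called genes were searched for 3 motifs on both strands, within the 250 bases before each RefSeq start (GRCm38.p6). A kappa B element was found in 18 of 720 matched genes called higher (2.50%), in 1.82% of 4713 tested genes and in 1.65% of 27025 promoters. The cAMP response letters TGACGTCA were found in 3.61%, 3.42% and 1.77%, and the AP-1 letters TGANTCA in 5.28%, 5.37% and 7.82%. The shares among raised genes were thus near those among all tested genes. Of 14 stress-list genes with a window, 2 held the cAMP response letters (14.3%). None of the 7 named raised genes with a window held any of the 3. Rel is shown because its upstream window held a kappa B element, 91 bases before its start on the opposite strand (chr11:23771042-23771071, gene on the minus strand, motif in capitals).
Rel: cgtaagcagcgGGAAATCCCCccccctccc

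Follicular and naive B-cell genes were higher in part. Of 10 tested, 5 were higher (15.8% of all genes) and 0 lower, with a median log2 fold change of 0.79, and the count was 10 without mucosa 1, 4 without mucosa 2 and 2 without mucosa 3. In IgD-bearing cells 2 of 9 were higher (13.3% of all genes), namely Ccr7 and Satb1. Ccr7, the receptor that brings lymphocytes to the T zone, lay at 238 to 426 CPM (median 318) against 74.2, 53.6 and 43.3. It rose by 2.54 ± 0.25 (adjusted p = 2.66e-06) and by 2.27 in IgD-bearing cells (adjusted p = 1.40e-06). Satb1, a chromatin organiser of lymphocytes, lay at 172 to 429 CPM (median 291) against 72.9, 21.8 and 26.2, and rose by 2.80 ± 0.35 (adjusted p = 3.06e-05). In T cells both genes were also higher in all 10 tumors than in all 3 mucosa libraries, Ccr7 at a mean of 38.6 against 7.99 CPM and Satb1 at 211 against 31.3.

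Other calls in this list did not pass the threshold without single mucosa libraries. Bach2, a repressor of plasma cell fate, rose by 1.19 (adjusted p = 0.0112) and stood at 0.98 without mucosa 3 (adjusted p = 0.0736). Foxp1 rose by 0.78 (adjusted p = 0.0255) and lost its call without mucosa 2 (0.60, adjusted p = 0.125), without mucosa 3 (0.72, adjusted p = 0.113) and with the tumors of a mouse summed (0.98, adjusted p = 0.0520). Fcer2a, the low-affinity IgE receptor CD23 of follicular cells, lay at 20.8 to 110 CPM (median 62.8) against 132, 1.99 and 18.4, so mucosa 1 was above all tumors, and it did not pass the test (adjusted p = 0.787).

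Of 12 B-cell identity genes tested, Pax5 (1.10 ± 0.32, adjusted p = 0.0147), Bank1 (0.73, 0.0356), Fcmr (1.05, 0.0388) and Pou2af1 (0.81, 0.0373) were higher and Iglc3 was lower, against 15.8% higher and 18.3% lower of all genes, with a median log2 fold change of 0.66 over the list. None of the 4 was called without mucosa 2 (log2 fold changes 0.50 to 0.96, adjusted p = 0.0669 to 0.174), without mucosa 3 (0.67 to 1.06, adjusted p = 0.0705 to 0.191) or in IgD-bearing cells (0.122 to 0.694), where the list's median was -0.08. The calls of Bank1, Fcmr and Pou2af1 were lost without tumor 7 as well (adjusted p = 0.0559, 0.0530 and 0.0574), with folds close to those of the full set. Without doublet-scored barcodes the same 3 were not called (adjusted p = 0.102, 0.0718 and 0.102). Bank1 (0.49, adjusted p = 0.0619) and Pou2af1 (0.60, 0.0553) were not called without other-cell barcodes, nor Pou2af1 with the stricter gate (0.0742). With the tumors of a mouse summed, Bank1 stood at 1.01 (adjusted p = 0.0590) and Fcmr at 1.43 (0.0548). Ighd lay at 273 to 478 CPM in tumors (median 325) and at 453, 43.7 and 130 in mucosa 1, 2 and 3 (log2 fold change 0.72, adjusted p = 0.202). Ebf1 stood at 0.65 (adjusted p = 0.161). Without mucosa 1 both were called, Ighd at 2.06 (adjusted p = 6.15e-04) and Ebf1 at 1.56 (1.18e-03), and 8 of the 12 genes were higher, so the count ran from 0 to 8 when 1 library was left out.

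Among 12 tested genes of B-cell receptor signaling, 4 were higher and 0 lower, against 15.8% and 18.3% of all genes. Pik3ap1, the adaptor BCAP that links the receptor to PI3K, lay at 64.0 to 131 CPM (median 107) against 42.1, 43.7 and 57.7, and rose by 1.20 ± 0.20 (adjusted p = 3.92e-04). In IgD-bearing cells it stood at 1.14 (adjusted p = 1.97e-03). The kinase genes Lyn and Syk rose by 0.90 (adjusted p = 1.48e-03) and 0.84 (7.00e-03), and the adaptor gene Dapp1 by 1.06 (7.23e-03). Their calls were not kept in IgD-bearing cells (adjusted p = 0.165, 0.0970 and 0.367), Syk was not called without other-cell barcodes (0.105) or doublet-scored barcodes (0.0734), and Dapp1 was not called without mucosa 3 (0.0540). Ptpn6, the inhibitory phosphatase SHP-1, fell by 0.61 without other-cell barcodes (adjusted p = 9.49e-03) and by 0.74 in IgD-bearing cells (0.0111), and Vpreb3, of the pre-B receptor family, fell by 0.79 without other-cell barcodes (0.0162). In the full set neither was called. In T cells Syk (mean 14.2 against 3.55 CPM) and Dapp1 (42.96 against 22.36) were above all 3 mucosa libraries in all 10 tumors. There Lyn was above them in 8 tumors and Pik3ap1 in 3 (mean 15.4 against 15.5 CPM). Outside the B-cell gate all 4 raised genes were above them in all 10. The cells outside the gate differed between the tissues, with summed neutrophil markers at 19162 to 39085 CPM in tumors and 149 to 189 in mucosa. The direction of Syk and Dapp1 was thus also seen in T cells. Whether that of Lyn and Pik3ap1 was particular to the B cells was not tested. Ptpn6 was below the mucosa in all 10 tumors in T cells (mean 39.5 against 72.2 CPM). Outside the gate Ptpn6 and Vpreb3 were above it in all 10.

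Of 12 tested genes of MHC class II presentation, 1 was higher and 0 lower in the full set, below the 15.8% and 18.3% of all genes, and 6 were higher without mucosa 1 (16.7% of all genes). H2-Aa, a chain of the class II molecule, stood at a log2 fold change of 0.27 and its invariant chain Cd74 at 0.23 (adjusted p = 0.280 for both). Without mucosa 1 Cd74 was called at 0.49 (adjusted p = 0.0325). The gene called was Cd86, a costimulatory ligand for CD28, which lay at 66.0 to 173 CPM (median 103) against 37.5, 23.8 and 49.9. It rose by 1.54 ± 0.27 (adjusted p = 4.64e-04) and by 1.06 in IgD-bearing cells (adjusted p = 0.0237).

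**Figure D5:**
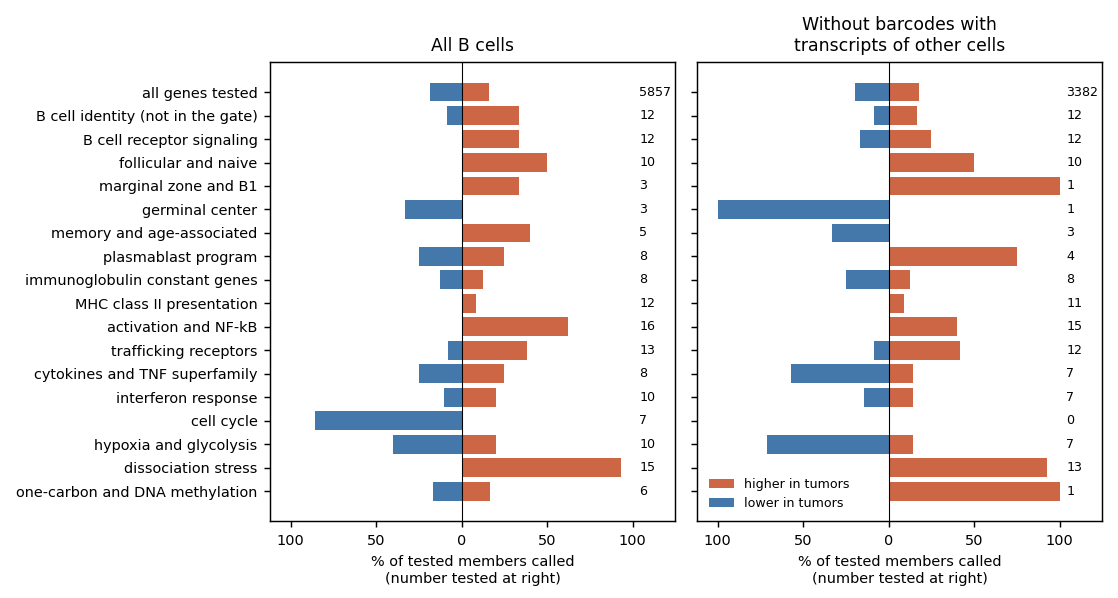
Percentage of the tested members of each gene list called higher (right) or lower (left) in tumor B cells, with the number tested at the right. The panels show all B cells and those left after barcodes with several UMIs of epithelial, neutrophil or macrophage genes were removed. The stress list stood at 14 of 15 higher, and the cell cycle list at 6 of 7 lower in all B cells.

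Of 13 trafficking receptors tested, 5 were higher and 1 lower, against 15.8% and 18.3% of all genes tested. The number higher ran from 2 without mucosa 3 to 8 without mucosa 1. Ccr6, the receptor for the epithelial and follicle chemokine CCL20, lay at 36.9 to 136 CPM (median 68.5) against 131, 195 and 172. It fell by 1.13 on the log2 scale (SE 0.23, adjusted p = 1.62e-03), with 1 tumor inside the mucosal range, and by 0.64 in IgD-bearing cells (adjusted p = 0.0247). P2ry10, a lysophospholipid receptor of lymphocytes, lay at 118 to 332 CPM (median 195) against 71.6, 9.93 and 34.1, and rose by 2.27 ± 0.39 (adjusted p = 4.72e-04). Cxcr4, the receptor for CXCL12, lay at 90.9 to 290 CPM (median 191) against 114, 9.93 and 24.9. It rose by 1.85 ± 0.47 (adjusted p = 7.15e-03) but was not called without mucosa 3 (1.56, adjusted p = 0.0503) or in IgD-bearing cells (0.77, adjusted p = 0.103).

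The receptor for the survival factor BAFF was among the transcripts lowered in tumor B cells. Tnfrsf13c, which encodes it, lay at 34.6 to 78.9 CPM in tumors (median 61.0) and at 217, 232 and 157 in mucosa 1, 2 and 3. Every tumor lay below every mucosa library. Tnfrsf13c fell by 1.61 on the log2 scale (SE 0.18, adjusted p = 9.62e-06) and was lower under every alternative run, by 1.82 without other-cell barcodes and by 1.51 in IgD-bearing cells. Tnfrsf13b, the receptor TACI for BAFF and APRIL, lay at 26.0 to 92.2 CPM (median 51.4) against 104, 125 and 86.6. It fell by 0.96 (adjusted p = 0.0101) but was not called without mucosa 2 (-0.83, adjusted p = 0.0538) or with the tumors of a mouse summed (-0.86, adjusted p = 0.0693).

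Of 8 cytokine and TNF superfamily genes tested, 2 were higher and 2 lower, near the 15.8% and 18.3% of all genes tested. Tgfb1, the regulatory cytokine that also directs switching to IgA, lay at 126 to 210 CPM (median 158) against 98.3, 65.5 and 53.8, and rose by 1.21 ± 0.23 (adjusted p = 8.21e-04). Il4ra, the interleukin-4 receptor chain, rose by 0.95 (adjusted p = 3.67e-03) and was not called without other-cell barcodes (0.56, adjusted p = 0.0909) or without doublet-scored barcodes (0.69, adjusted p = 0.0511). Ltb, lymphotoxin beta, stood at -0.61 in the full set (adjusted p = 0.0608) and fell by 0.80 without other-cell barcodes (adjusted p = 3.02e-03) and by 0.89 in IgD-bearing cells (adjusted p = 2.93e-03). Lta had 48 UMIs in tumors and 61 in mucosa, a mucosa-to-tumor ratio of 4.72 (exact interval 3.18 to 7.03), and was below the filter of the test.

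Of 10 interferon response genes tested, 2 were higher and 1 lower, also near the shares over all genes. Irf1, an interferon-induced transcription factor, rose by 1.22 (adjusted p = 0.0114). Ly6a, which encodes the surface protein Sca-1, lay at 156 to 381 CPM (median 308) in tumor B cells against 449, 921 and 669, with no overlap. It fell by 1.24 (SE 0.26, adjusted p = 2.24e-03) and by 0.98 in IgD-bearing cells (adjusted p = 0.0134). In T cells Ly6a lay at 649 to 1138 CPM in tumors and 272 to 691 in mucosa, where the order was the other way, and this difference between cell types was not tested. In all barcodes outside the B-cell gate Ly6a averaged 421 CPM in tumors and 670.2 in mucosa, the same order as in B cells.

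The plasmablast list held 2 genes higher and 2 lower of 8 tested, again near the 15.8% and 18.3% of all genes. Irf4, a factor of activated and antibody-secreting B cells, lay at 49.2 to 113 CPM (median 76.6) against 20.1, 9.93 and 15.7, and rose by 2.32 ± 0.27 (adjusted p = 1.30e-05). In T cells Irf4 was also higher in all 10 tumors than in all 3 mucosa libraries. Hspa5, the chaperone BiP of the endoplasmic reticulum, lay at 455 to 907 CPM (median 633) against 288, 433 and 247, and rose by 1.04 ± 0.24 (adjusted p = 4.21e-03). The secretory pathway genes Sdf2l1 and Fkbp11 fell by 1.15 and 1.54 (adjusted p = 8.55e-03 and 0.0218). Sdf2l1 was not called without mucosa 3 (adjusted p = 0.0546), and Fkbp11 was not called without mucosa 1 (0.144) or mucosa 2 (0.0869).

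Of the 8 immunoglobulin constant genes tested, Igkc was higher and Iglc3 lower, no more than the 15.8% and 18.3% of all genes. Iglc3 lay at 132 to 374 CPM (median 189) against 787, 431 and 404 and fell by 1.27 (adjusted p = 4.62e-03), with the call lost without mucosa 1 (-0.84, adjusted p = 0.0554). Igkc rose by 1.05 (adjusted p = 0.0413). It was not called with mouse as a block (adjusted p = 0.0521), without mucosa 2 (0.151) or without mucosa 3 (0.192). In IgD-bearing cells Igkc stood at 0.0997 (adjusted p = 0.723). Igha, at a log2 fold change of 1.36 (adjusted p = 0.400), turned to -0.36 without tumor 6 (adjusted p = 0.652), where 1 barcode held 1198 of the 1432 Igha UMIs. In IgD-bearing cells Igha was called higher at 5.13 (adjusted p = 2.97e-04) and the joining chain gene Jchain at 4.71 (1.79e-04), beside the Igha transcripts seen in tumor T cells above.

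Lists of smaller subsets gave few calls. Of 3 marginal zone and B1 genes tested, Dtx1, a Notch-responsive gene, rose by 1.51 (adjusted p = 6.92e-03) and was not called in IgD-bearing cells (0.58, adjusted p = 0.262). Bhlhe41, a B1-cell factor below the filter, had 43 UMIs in tumors and 100 in mucosa, a mucosa-to-tumor ratio of 8.63 (exact interval 5.98 to 12.6). Of 3 germinal center genes tested, Fas fell by 1.40 (adjusted p = 0.0174), and this call was lost without mucosa 2 (0.127) or mucosa 3 (0.0991). Of 5 memory and age-associated genes tested, 2 were higher and 0 lower (15.8% and 18.3% of all genes), while without other-cell barcodes 0 of 3 were higher and 1 lower (18.0% and 19.7%).

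Of 10 hypoxia and glycolysis genes tested, 2 were higher and 4 lower in all B cells, against 15.8% and 18.3% of all genes, and 0 of 5 were called in either direction in IgD-bearing cells. Slc2a1, the glucose transporter GLUT1, rose by 1.43 (adjusted p = 2.17e-03). The glycolytic enzyme genes Pgk1, Aldoa and Ldha fell by 1.10, 0.86 and 0.77 (adjusted p = 7.56e-03, 4.75e-03 and 0.0255), and none was called without mucosa 2 (adjusted p = 0.0956, 0.0669 and 0.300) or with the tumors of a mouse summed (0.0856, 0.0910 and 0.239). The call of Ldha was also lost without doublet-scored barcodes (0.0632), mucosa 3 (0.101), tumor 3 (0.0549), tumor 6 (0.0569) or tumor 9 (0.0526). Of 6 one-carbon and DNA methylation genes tested, 1 was higher and 1 lower, near the 15.8% and 18.3% of all genes. Mat2a, which makes S-adenosylmethionine, rose by 0.70 (adjusted p = 0.0304), and Tyms, which makes thymidylate from folate, fell by 1.91 (1.88e-03). Mat2a was not called without mucosa 1, 2 or 3 (adjusted p = 0.0602 to 0.114) or without tumor 7 (0.0521).

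Cell cycle genes were lower in tumor B cells, with 6 of 7 tested lower (18.3% of all genes) and 0 higher and a median log2 fold change of -1.85. Mki67, the proliferation antigen Ki-67, lay at 0 to 45.4 CPM against 30.8, 137 and 89.2, and fell by 1.75 (adjusted p = 0.0105). Top2a, the topoisomerase of dividing cells, fell by 1.85 (adjusted p = 6.92e-03). Neither call was kept without mucosa 2 (adjusted p = 0.103 and 0.0750), and that of Mki67 was also lost without mucosa 3 (0.0532). In the barcodes outside the B-cell gate all 7 were also lower in each of the 10 tumors than in each mucosa library. There Mki67 averaged 73.1 CPM in tumors and 135 in mucosa, while in T cells it averaged 85.9 and 88.0. Without other-cell barcodes none of these genes passed the filter, so the list could not be tested there.

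The 10 genes named as most lowered in all B cells were Fabp2, Reg3b, Car4, Hist1h1b, Sprr2a3, Sord, Plet1, Ube2c, Pclaf and Cbr1, with log2 fold changes from -8.30 to -2.63. Fabp2, Reg3b and Car4 are genes of absorptive epithelium and Ube2c and Pclaf of dividing cells. None was tested without other-cell barcodes, where all fell below the filter. The summed epithelial markers were higher in the mucosal than in the tumor B cells, with 8 of 12 tested markers lower in tumors, and their part in these 10 results was not tested.

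Applying the same rule without other-cell barcodes, a choice made after seeing the data, named other genes. Among them were the lymphocyte genes Gimap7 and Gpr18 and the BAFF receptor gene Tnfrsf13c. Others were not particular to lymphocytes: in the mucosal barcodes outside the B-cell gate, Cib1 averaged 491 CPM and Hist1h1e 213. The 10 genes, among them Hist1h1e, Gimap7, Cib1, Ndufaf3, Tnfrsf13c, Mcrip1, Ddit4, Faap20 and Gpr18, had log2 fold changes from -2.82 to -1.73 in those barcodes. Of these, Ddit4 was not called in all B cells (-0.62, adjusted p = 0.195). Gimap7, a GTPase of lymphocytes, lay at 40.1 to 104 CPM in these tumor B cells (median 56.7) against 163, 354 and 357 in mucosa 1, 2 and 3. Gpr18, a G protein-coupled receptor of lymphocytes of the intestinal epithelium, lay at 20.6 to 69.0 CPM (median 44.9) against 120, 194 and 171. No tumor reached the mucosal range for either gene. In T cells Gpr18 lay at 22.8 to 50.5 CPM in tumors and 121 to 143 in mucosa. There 7 of the 10 genes were lower in every tumor than in every mucosa library, and 1 was higher. Klf4, a factor of quiescent lymphocytes, and Irs2, an insulin receptor substrate, joined the raised genes under this rule, at 3.99 and 3.46 (adjusted p = 1.09e-05 and 1.88e-07), while Klf4 stood at 0.48 in all B cells (adjusted p = 0.388).

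Among themselves, the B cells of the 6 tumors with at least 100 of them varied most, relative to each gene's own mean, in Lyz1, Hspa1a, Gadd45g, Nr4a2, Grasp, Plcb2, Bambi, Dennd5b, Tnfrsf18 and Hes1. The heat shock gene Hspa1a was found in 3.60% to 8.39% of the B cells of a tumor and the Notch target Hes1 in 9.62% to 19.1%. Between these tumors, the widest ranges belonged to the epithelial and antimicrobial genes Ang4, Lyz1, Saa1, Spink1 and Spink4, and in the highest tumor a single barcode held 69.7% to 100% of the UMIs of each. After these came Aff1 (9.84 to 128 CPM), the mitochondrial leucyl-tRNA synthetase gene Lars2 (295 to 2567 CPM) and the interferon-induced GTPase gene Irgm1 (19.2 to 119 CPM). Over these 6 tumors Lars2 had the same order as Gm42418, which ran from 5958 CPM in tumor 2 to 80650 in tumor 7. A link between the 2 genes was not tested. Single cells also set some antibody levels: 1 barcode of tumor 7 held 5554 of its 6294 Iglc1 UMIs and 1 of tumor 9 held 322 of its 323 Ighg2c UMIs.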

How the data were processed

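Single-cell libraries of 10 tumors and 3 mucosa samples were analysed from the UMI counts per gene and barcode that the authors deposited as filtered matrices of 32285 genes. Per the submitters' processing notes these were made with Cell Ranger 6.0.0 on mm10, while the study's methods name an earlier release. Total UMIs per library were 57221300 to 93157039 in tumors and 84883382 to 116133079 in mucosa. Intervals cover counting error only. The members and gene lists were chosen with earlier results of these data known. The same is true of the tests.

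UMIs of B cells were summed per library and tested with edgeR 4.0.16 (R 4.3.3; TMM, filterByExpr, quasi-likelihood test, Benjamini-Hochberg over all genes tested, called at adjusted p under 0.05), after a check on simulated counts. Genes of the gate were fitted but not read. DESeq2 1.42.0 was an alternative. Fold changes are on the log2 scale, with SE. The 3 mice, not the tumors, are the independent animals, so p-values over libraries measure the spread between libraries. For the gates each cell was thinned once at random, anew in each subset. Shares were tested by exact permutation of the mucosa label within mice (75 assignments) and fractions were adjusted over 5. The labels' animal codes pair mucosa with tumors. Deviations of mucosa and tumors of a mouse correlated at 0.264, -0.0745 and 0.124 in the 24-, 23- and 20-week mice.

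Named genes were the 10 with the largest change in each direction among those called, without overlap between groups, with a log2 fold change of at least 1, at least 20 CPM in the higher group and at least 0.5 of the level in other barcodes, leaving out gate, immunoglobulin variable, mitochondrial, ribosomal, Gm and Rik genes. To them were added members of the gene lists by role, then the genes most variable over cells and over tumors. Barcodes with at least 3 UMIs of Epcam, Krt8 and Krt18, at least 5 of S100a8 and S100a9 or at least 3 of Lyz2, Tyrobp and Fcer1g counted as holding transcripts of other cells. Doublets were not removed in the main analysis. A score marked 314 B cells, removed as an alternative. Of the B-cell barcodes, 116 had a sequence also retained in another library, and 0 were shared as B cells. Promoter windows were from RefSeq (GRCm38.p6). A few genes that the naming rule or the lists reached are not reported here.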

Additional observations from a re-analysis of the deposited data

Results flagged for a closer look

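In 106 sets of tumor values tested for 1 library far from the others, 19 held one. At 1 in 20 the number would be 5.30, but that rate assumes independent sets, and these share libraries and barcodes. The 19 are therefore not read as an excess over chance. Each is given with the next value. Tumor 6 was highest for Igha (6851 CPM, next 535), Igkc (15285, next 9536), Jchain (1435, next 266), Icam1 (172, next 110.3), Fabp2 (19.1, next 5.76) and Reg3b (100.5, next 42.0). In this tumor of 63 B cells, 1 barcode held 83.7% of the Igha UMIs and 56.8% of the Igkc UMIs. Tumor 2 was lowest for Pik3ap1 (64.0 CPM, next 100.5), Nfkb2 (32.0, next 60.8) and Btg2 (369, next 632) and highest for Cib1 (283, next 154).

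Tumor 3 was highest for Nr4a3 (119 CPM, next 61.2), Ccr6 (136, next 78.9) and Irs2 (190.2, next 123). Tumor 8 was highest for Car4 (17.3 CPM, next 6.42) and for the cycling gate (2.01% of B cells, next 0.565%). Tumor 10 was highest for Junb (3381 CPM, next 2612) and Hist1h1b (43.1, next 8.89). Tumor 9, with 42 B cells, was highest for P2ry10 (332 CPM, next 232). Tumor 4 was highest for lambda light chains (9.59% of called B cells, next 2.47%).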

How the results depend on the processing

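The difference in B-cell share kept no stable sign: it was -0.150 percentage points with a stricter gate, -3.75 as a share of barcodes with a Ptprc UMI, -0.463 without the 24-week mouse and -2.41 without the 23-week mouse, and ranged from -2.41 (without mucosa 3) to 4.62 (without mucosa 1) when 1 library was left out. It passed the test in none of these. The 5 fractions kept their direction in every alternative run, but not their size: without thinning the germinal center difference moved from -1.12 to -4.95 points and cycling from -3.94 to -11.1, and the stricter gate moved IgG from -2.46 to -5.53. With 1 more UMI required the germinal center difference was -0.623. After adjustment the test was passed without doublet-scored barcodes by the germinal center gate (-1.99 points), the cycling gate (-4.26) and lambda (-15.4), without other-cell barcodes by the same fractions (-1.27, -4.27 and -15.1), and with 1 more UMI required by the cycling gate (-2.27) and lambda (-19.0). The thinning was drawn anew in each subset. In tumor 8 the germinal center gate was passed by 0 of 149 B cells in the full set and by 2 of 129 without other-cell barcodes. How far the draw moved the results of the gates was not tested. Leaving out 1 library, the differences ran from -5.54 to -1.89 for cycling, -3.56 to -1.54 for IgG, -40.2 to -17.5 for IgA, -21.3 to -8.88 for lambda and -1.78 to -0.324 for the germinal center gate. All these ends came from leaving out a mucosa library, which drops the tumors of its mouse from the test as well. Without tumor 3, the cycling, IgG, IgA and lambda fractions passed, and without tumor 4 the cycling and lambda fractions (adjusted p = 0.0417, exact permutation).

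Called genes numbered 2021 with RLE size factors, 2580 without a filter, 2503 with DESeq2 and 1886 under 10% mitochondrial UMIs. They fell to 1123 without doublet-scored barcodes (564 higher, 559 lower), 1190 with the stricter gate (565 lower, with tumor 9 left out), 1275 without other-cell barcodes (609 and 666), 485 in IgD-bearing cells (282 and 203, with mucosa 2 left out) and, among libraries with at least 100 B cells, to 694 lower. Fewer genes were tested in the smaller sums. Leaving out 1 library gave 1077 to 2430 calls (575 to 1076 higher, 502 to 1354 lower). With mouse as a replicate block 1945 genes were called (900 higher, 1045 lower), 1855 of them in both fits. With the tumors of a mouse summed 1629 were called, and 1245 of the 1980 main calls tested there were called again. Of the named genes, the replicate block ended the call of Igkc and gave one to Ebf1 (0.79), Klf2 (1.04), Jchain (2.22), Ighm (1.04), Gpr183 (0.92) and Ltb (-0.61), and changed no other. On sums per mouse with the same block, Jchain and Gpr183 were called but Ebf1, Klf2, Ighm and Ltb were not, and the calls of Bank1, Fcmr, Foxp1, Nfkbia, Tnfrsf13b, Ldha, Pgk1 and Aldoa were lost.

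Of 100 named genes, 83 were called and 51 of these under every alternative in which they were tested. Removing doublet-scored barcodes ended 10 calls, those of Bank1, Fcmr, Pou2af1, Syk, Nfkbia, Nfkbid, Egr1, Egr3, Il4ra and Ldha, and gave one to Ltb. Keeping only libraries with at least 100 B cells also ended 10, those of Pax5, Bank1, Fcmr, Pou2af1, Sdf2l1, Nfkbia, Egr1, Tnfrsf13b, Ldha and Mat2a. Their adjusted p values there ran from 0.0502 to 0.0954. In IgD-bearing cells, where mucosa 2, the library lowest in Ighd and Ebf1, was also left out, the sign turned for Ighd (-0.22, in cells chosen for carrying Ighd, so this value is no test), Ebf1 (-0.049), Fcer2a (-0.76), Klf2 (-0.16), S1pr1 (-0.16), Ighm (-0.17), H2-Aa (-0.0092) and Cd74 (-0.046), none of them called in the full set. Fcer2a also turned without other-cell barcodes (-0.12), without mucosa 2 (-0.21) and without mucosa 3 (-0.14), and over all libraries left out it ran from -0.21 to 2.60. Igha turned with tumors summed per mouse (-0.11), without doublet-scored barcodes (-0.34), with the stricter gate (-0.23), without other-cell barcodes (-0.34), with at least 100 B cells per library (-0.43), without tumor 6 (-0.36) and with DESeq2 (-0.46), and over all libraries left out it ran from -0.36 to 2.31. In IgD-bearing cells Igha was called higher at 5.13. The causes were not tested.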
